A study of Mus musculus with 6 samples.

Results

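The genes described here carry the family names Spata, Spag, Tssk, Catsper, Spaca, Izumo, Zpbp or Spesp, or are Acrbp, Spam1, Crem and Fhl5. Many of them act late in sperm formation, but a shared name is not a shared role. Izumo1r, for example, encodes an egg receptor and Spag11a is an epididymal gene. Below, spermatid and acrosome members means all genes taken by name. Members were all probes whose single gene symbol in the platform annotation fits one of these family names or single symbols, whatever their values. The rule found 55 probes for 53 genes among 33012 probes, of which 14411 had a single symbol. RefSeq lists 80 genes with a symbol of this kind, and those with no member probe, such as Acr, Acrv1 and Izumo1, were not analysed here. Whole testes of 6 adult male C57BL/6J mice aged 10 to 12 weeks were measured, with 1 array per mouse and 2 mice per group. Mice labelled wild-type ate chow, mice labelled Abcg8 knockout ate chow, and further mice labelled Abcg8 knockout ate chow with 0.005% ezetimibe, so the last 2 groups share the knockout label. Abcg8 encodes a subunit of a sterol exporter of liver and gut, and ezetimibe blocks sterol uptake from the gut. The Abcg8 probe read a log2 signal of 10.34 and 10.29 in wild-type-labelled testes and between 14.04 and 14.42 on the 4 knockout-labelled arrays, against the direction of a deletion. The labels do not say where this probe lies relative to the deleted part. Every direction below rests on the labels.

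Sperm form when round spermatids, which have finished meiosis, build an acrosome, condense their nucleus and grow a tail. The acrosome is a secretory vesicle over the nucleus that carries the enzymes and membrane proteins used to reach and fuse with the egg. Many of the genes needed are switched on in round spermatids by CREM, a transcription factor that binds the cyclic AMP response element, and by its testis-specific coactivator, the product of Fhl5.

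Nearly all spermatid and acrosome members gave a signal above background in every group. A probe was taken as detected at a signal-to-noise of at least 3, and tested when it was detected on both arrays of at least 1 group. This kept 51 member probes of 49 genes among 16015 tested probes, and 49 of them were detected on all 6 arrays. Spata2 and Spata2l were each detected on 5 arrays. The 4 members left out were Izumo1r, the gene of the egg receptor JUNO, detected on 0 arrays, Spag11a, an epididymal gene detected only on wild-type-labelled replicate 2 at a signal-to-noise of 4.42, and Spata31d1a and Spata33, detected only on wild-type-labelled replicate 1 at 5.79 and 4.83. Wild-type-labelled replicate 2 was the dim array, with a median raw signal of 258 against 515 to 678 on the others.

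In knockout-labelled testes, most spermatid and acrosome members read slightly less than in wild-type-labelled testes with quantile normalisation but not with median scaling, and none passed the test. Signals are log2 values after quantile normalisation between arrays, and a difference is 1 group's mean minus another's. Of the 51 members, 36 lay below 0, where 49.1% of all tested probes did, but under median scaling, which moves the median of all probes to 0.11, only 21 did. Relative to the median of all probes, 36 members lay lower with quantile normalisation and 38 with median scaling. The median difference of the members was -0.077 log2 units, against 0.0052 for all tested probes, and the members ranged from -0.35 for the second probe of Catsperg2 to 0.31 for Spaca1. In bulk testis, fewer spermatids and less RNA per spermatid cannot be told apart. By limma, 0 members had an adjusted p under 0.05 (background 0.0125% of tested probes, or 2 probes), and the lowest was 0.505. Without adjustment, 3 members had a p under 0.05, against 8.99% of all tested probes. That count was 1 of 51 with median scaling (all tested probes 1376 of 16015) and 0 of 55 with no filter on dim probes (2205 of 33012). It was 7 of 49 with detection on all 6 arrays (1340 of 12990). An intensity trend in the prior variance gave 11 of 51 (1916 of 16015). Of 82 differences of named members, 58 moved by over 1.5 times or turned sign with median scaling and 66 did so with 1 array left out.

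The arrays of the knockout-labelled and wild-type-labelled groups did not overlap for 23 members, 5 higher (background 22.6%) and 18 lower (background 21.1%) in knockout-labelled testes. With median scaling these counts were 11 higher and 10 lower, but the backgrounds given are for quantile normalisation and do not apply to them. Median scaling also moved the median of all probes, and no share over all probes was counted under it. The change in these counts is therefore not a result about the members. Leaving out wild-type-labelled replicate 1 gave a median of -0.12 and leaving out replicate 2, the dim array, gave -0.052. The precision allows some limits. For 40 of 51 members the 95% interval of the difference lay within 0.5 log2 units of 0 (background 43.5% of all tested probes and 76.8% of the 4003 brightest), and for 50 it lay within 1 log2 unit. The exception at the wider limit was Spata2l.

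With ezetimibe, more members lay above 0 than below with quantile normalisation, though not with median scaling. In ezetimibe-fed against chow-fed knockout-labelled testes, 36 members lay above 0 and 15 below (background 49.8% below), but under median scaling 24 lay above. Relative to the median of all probes, 36 lay higher under both scalings. The median difference was 0.038 log2 units against 0.0009 for all tested probes, with a range from -0.68 for Spata31 to 0.38 for Spata2l. No member passed, with 0 of 51 at an adjusted limma p under 0.05 (background 0.0%), a lowest adjusted p of 0.592, and 2 with an unadjusted p under 0.05 (background 5.76%). Groups did not overlap for 17 members that were higher (background 19.1%) and 7 that were lower (background 19.7%). With median scaling the counts were 9 and 8, to which these backgrounds of quantile normalisation do not apply. They too lack a share over all probes and are not a result about the members. The intervals of 43 members lay within 0.5 log2 units of 0 (background 49.5%, and 85.9% of the 4003 brightest probes). Both this comparison and the previous one use the knockout-labelled arrays without ezetimibe, so a low reading on those arrays enters both with opposite signs.

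Between ezetimibe-fed knockout-labelled and wild-type-labelled testes no member passed the test. The members split 20 above and 31 below 0 (background 48.9% below) with quantile normalisation and 29 above and 22 below with median scaling. Median scaling moved the median of all probes to 0.058, and 32 members lay below that median under both scalings. The median difference of the members was -0.020 log2 units with quantile normalisation, against 0.0042 for all tested probes. Members ranged from -0.54 for Spata31 to 0.26 for Spata16. By limma 0 members passed (background 0.0125%), the lowest adjusted p was 0.597, and 1 had an unadjusted p under 0.05 (background 7.24%). Groups did not overlap for 5 higher members (background 18.6%) and 12 lower members (background 18.2%). With median scaling the counts were 11 and 7, to which these backgrounds of quantile normalisation do not apply. Without a share over all probes under that scaling, these counts cannot be read as a result about the members. The intervals of 42 members lay within 0.5 log2 units of 0 (background 47.9%, and 85.0% of the 4003 brightest probes).

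**Figure D1:**
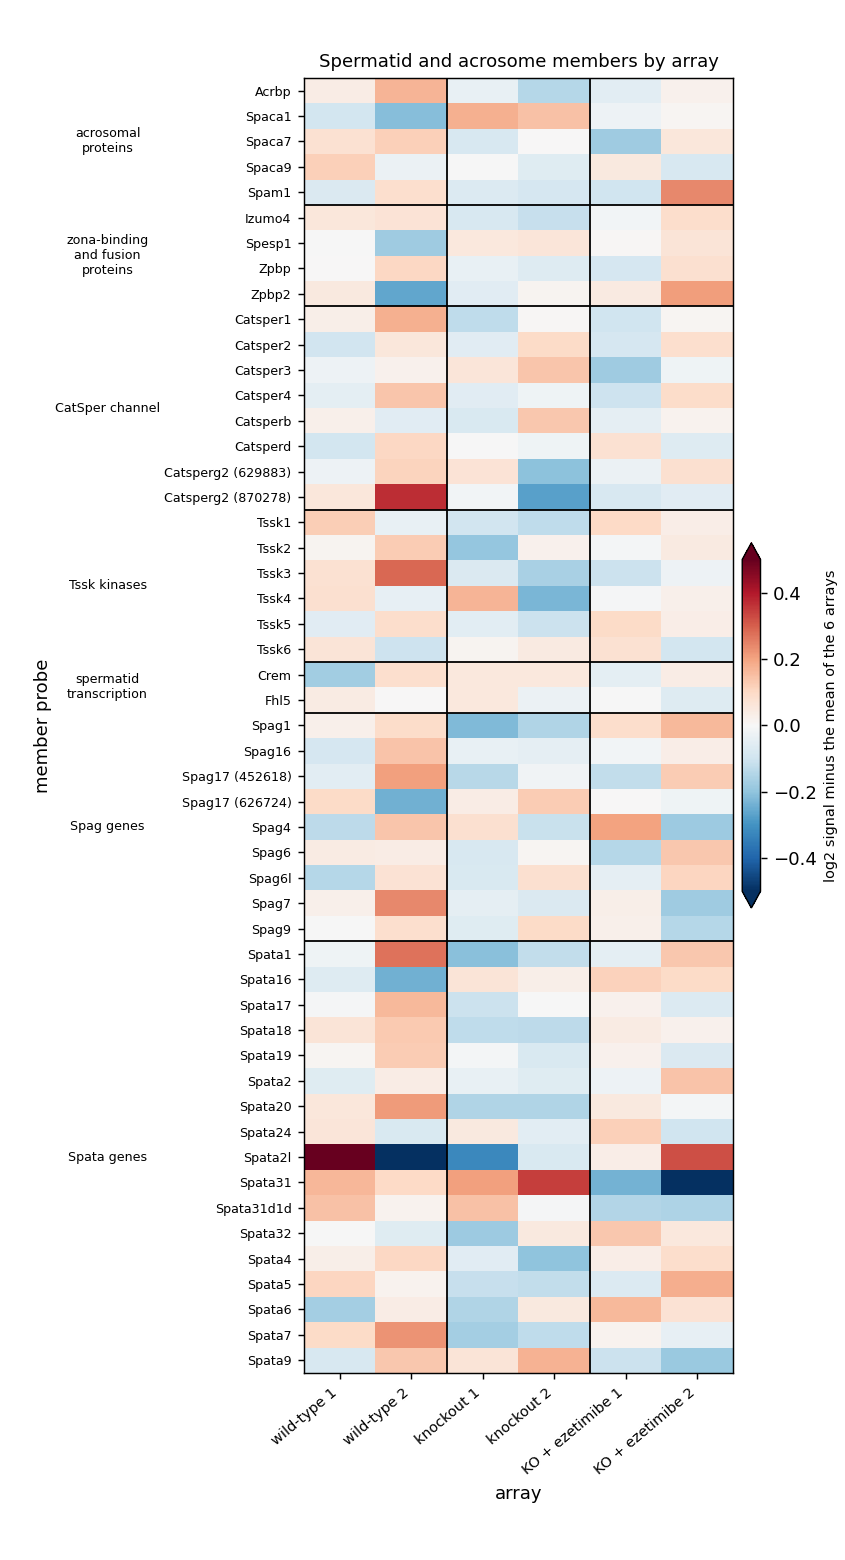
The 51 tested member probes (rows, ordered by role) on the 6 arrays (columns, named by label), coloured by the log2 signal minus the probe's mean over the 6 arrays. Most values lie within 0.5 log2 units; Spata31 is low on the ezetimibe arrays, and Spata2l varies most between the 2 wild-type-labelled arrays.

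**Figure D2:**
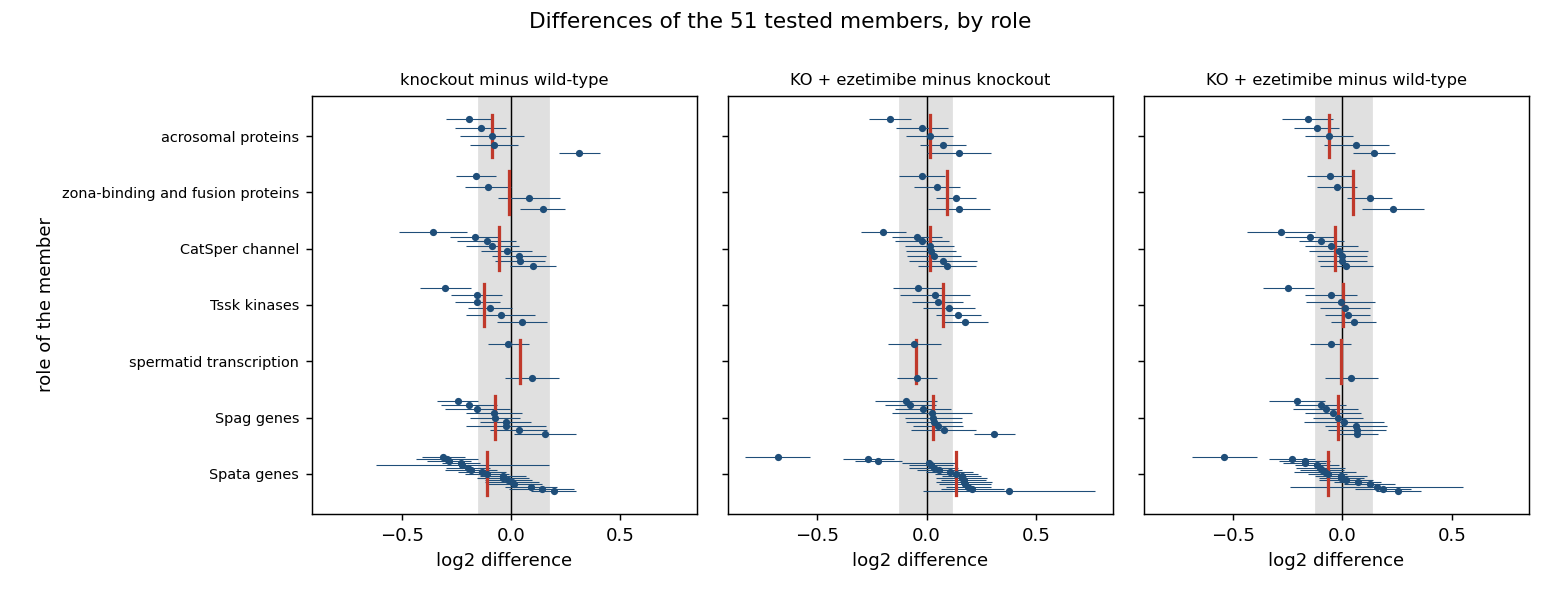
Log2 differences of the 51 tested members in each comparison by role (points, with the SE from limma as bars), the median of each role (red line) and the middle 50% of all tested probes (grey band). Role medians lie between -0.12 and 0.14, with quantile-normalised values; their side of 0 changes under median scaling for several roles.

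The members' median deviation from their own mean over the arrays was 0.025 and 0.084 in wild-type-labelled testes, -0.055 and -0.031 in chow-fed knockout-labelled testes, and -0.011 and 0.033 after ezetimibe. The 2 knockout-labelled arrays were the lowest, and the dim wild-type-labelled array was the highest. The SD between the 2 arrays of a group had a median over members of 0.10 in the wild-type-labelled, 0.059 in the knockout-labelled and 0.067 in the ezetimibe group. The members' median deviation itself had an SD of 0.032 between the 2 arrays of a group, pooled over the 3 groups. Over all 6 arrays a member's range had a median of 0.31 log2 units, against 0.43 for all tested probes and 0.26 for the 4003 of them with the highest mean signal. Of the 51 members, 39 were among those 4003 probes. Over those 4003 probes the median difference of all probes between chow-fed knockout-labelled and wild-type-labelled testes was -0.010, with 52.4% of probes below 0, and that of the 39 members there was -0.085.

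Crem and Fhl5, the activator pair of spermatid transcription, had no difference past the test. Crem read 16.26 and 16.52 in wild-type-labelled testes, 16.48 and 16.48 in chow-fed knockout-labelled testes, and 16.39 and 16.47 after ezetimibe. Fhl5 read 17.00 and 16.96 in wild-type-labelled testes, 17.01 and 16.93 in chow-fed knockout-labelled testes, and 16.96 and 16.90 after ezetimibe. Wild-type-labelled replicate 1 was the lowest array for Crem, and the groups overlapped for both genes between chow-fed knockout-labelled and wild-type-labelled testes. Their differences in that comparison were 0.097 (SE 0.12, limma adjusted p = 0.772) for Crem and -0.011 (SE 0.093, limma adjusted p = 0.97) for Fhl5, and the sign turned for Crem without replicate 1 and for Fhl5 under median scaling. With ezetimibe they differed from chow-fed knockout-labelled testes by -0.057 and -0.044. The 95% interval of the Crem difference between chow-fed knockout-labelled and wild-type-labelled testes ran from -0.22 to 0.41.

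The cyclic AMP response element that CREM binds has the core TGACGTCA, and a shorter form, TGACG. Both were looked for on both strands in RefSeq promoter windows of assembly GRCm38.p6, from 250 bases before to 50 after each gene's start. A window was listed for 44 of the 53 member genes. The full core stood in 3 of these 44 windows (6.82%), against 3.58% of the 6814 windows of genes with a tested probe and 2.03% of all 27025 windows. TGACG, which the full core contains, stood in 17 windows (38.6%), against 34.0% and 23.0%. The 3 windows with the full core are shown with that of Spata31, the member with the largest difference, which has neither form. Each stretch runs from 150 bases before the start to 10 after it, 5′ to 3′ in the gene's direction, with the full core in capitals. They lie at chr2:156065063-156065222 (plus strand), chr16:16829354-16829513 (minus strand), chr12:98627992-98628151 (plus strand) and chr13:64917256-64917415 (plus strand).
Spag4: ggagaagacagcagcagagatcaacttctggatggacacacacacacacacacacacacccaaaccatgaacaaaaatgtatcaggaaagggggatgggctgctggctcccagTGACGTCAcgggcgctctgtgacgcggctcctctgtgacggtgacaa
Spag6l: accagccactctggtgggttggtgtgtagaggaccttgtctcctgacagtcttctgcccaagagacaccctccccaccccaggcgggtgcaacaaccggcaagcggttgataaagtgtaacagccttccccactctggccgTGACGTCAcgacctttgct
Spata7: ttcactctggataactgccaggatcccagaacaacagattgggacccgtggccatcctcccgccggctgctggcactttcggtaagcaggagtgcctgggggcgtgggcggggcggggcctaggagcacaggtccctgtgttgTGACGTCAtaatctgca
Spata31: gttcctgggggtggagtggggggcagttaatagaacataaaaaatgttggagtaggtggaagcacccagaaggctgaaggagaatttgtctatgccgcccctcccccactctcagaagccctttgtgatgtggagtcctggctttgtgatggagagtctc
The core began 37 bases before the start in Spag4, 9 before it in Spag6l and 7 before it in Spata7. Their differences between chow-fed knockout-labelled and wild-type-labelled testes were -0.020, 0.037 and -0.31 log2 units. The 17 tested members with TGACG had a median of -0.020 in that comparison and 10 below 0, and the 25 tested members with a window and without it had -0.085 and 19 below 0. A match of letters is not evidence of binding.

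Among the acrosomal proteins, Spaca1 stood above the others in knockout-labelled testes. Spaca1 encodes a membrane protein of the acrosome that the vesicle needs to take its shape. It read 16.49 and 16.37 in wild-type-labelled testes, 16.76 and 16.73 in chow-fed knockout-labelled testes, and 16.56 and 16.60 after ezetimibe. Every knockout-labelled array lay above both wild-type-labelled arrays, and the ezetimibe arrays lay between. The difference between chow-fed knockout-labelled and wild-type-labelled testes was 0.31 (SE 0.096, limma adjusted p = 0.505), or 1.24-fold, the lowest p of the members there. With ezetimibe Spaca1 lay -0.17 from chow-fed knockout-labelled and 0.15 from wild-type-labelled testes.

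Acrbp encodes the protein that binds proacrosin in the acrosomal granule. It read 16.72 and 16.85 in wild-type-labelled testes, 16.64 and 16.54 in chow-fed knockout-labelled testes, and 16.63 and 16.70 after ezetimibe. Both wild-type-labelled arrays were the highest, and the difference of knockout-labelled testes was -0.19 (SE 0.10, limma adjusted p = 0.581). Spam1 encodes PH-20, the sperm hyaluronidase, and read 12.80 and 12.96 in wild-type-labelled testes, 12.80 and 12.79 in chow-fed knockout-labelled testes, and 12.77 and 13.12 after ezetimibe. The second ezetimibe array was the highest and the groups overlapped in all 3 comparisons. Spaca7 and Spaca9 differed by -0.14 and -0.077 between chow-fed knockout-labelled and wild-type-labelled testes. Of the 5 acrosomal members, 4 lay below 0 in that comparison with a median of -0.085, and 2 did under median scaling. Measured from the median of all probes, 4 lay lower under both scalings.

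Zona-binding and fusion proteins showed no common direction. Zpbp and Zpbp2, whose products sit in the acrosomal matrix and bind the zona pellucida, gave different orders of the arrays. Zpbp read 16.41 and 16.51 in wild-type-labelled testes, 16.37 and 16.34 in chow-fed knockout-labelled testes, and 16.33 and 16.49 after ezetimibe. Zpbp2 read 18.00 and 17.70 in wild-type-labelled testes, 17.90 and 17.97 in chow-fed knockout-labelled testes, and 18.00 and 18.16 after ezetimibe. The dim wild-type-labelled array was the lowest for Zpbp2, and without it the difference between chow-fed knockout-labelled and wild-type-labelled testes turned from 0.085 to -0.068. Spesp1, which encodes a protein of the equatorial segment where sperm and egg fuse, read 14.16 and 13.99 in wild-type-labelled testes, 14.22 and 14.22 in chow-fed knockout-labelled testes, and 14.17 and 14.23 after ezetimibe. Both wild-type-labelled arrays were the lowest for Spesp1, with replicate 1 under the lowest other array by less than 0.01 and a difference in knockout-labelled testes of 0.15 (SE 0.10, limma adjusted p = 0.63). That difference was 0.26 with median scaling, 0.058 without wild-type-labelled replicate 2 and 0.23 without replicate 1. Izumo4 encodes a secreted relative of the sperm-egg fusion protein. It read 15.64 and 15.65 in wild-type-labelled testes, 15.50 and 15.47 in chow-fed knockout-labelled testes, and 15.57 and 15.67 after ezetimibe. Both knockout-labelled arrays without ezetimibe were the lowest, with a difference of -0.16 (SE 0.092, limma adjusted p = 0.585) from wild-type-labelled testes and 0.14 with ezetimibe. Of the 4 tested members, 2 lay below 0 between chow-fed knockout-labelled and wild-type-labelled testes and 1 between ezetimibe-fed and chow-fed knockout-labelled testes.

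The CatSper channel admits calcium into the sperm tail and drives hyperactivated swimming. Its pore is built from the products of Catsper1 to Catsper4, and Catsperb, Catsperd and Catsperg2 encode accessory subunits. Catsper1 read 14.23 and 14.38 in wild-type-labelled testes, 14.08 and 14.21 in chow-fed knockout-labelled testes, and 14.10 and 14.21 after ezetimibe. Catsper3 read 15.86 and 15.91 in wild-type-labelled testes, 15.94 and 16.02 in chow-fed knockout-labelled testes, and 15.71 and 15.86 after ezetimibe. Catsper1 was highest on the wild-type-labelled arrays and Catsper3 on the knockout-labelled arrays without ezetimibe. Catsper3 differed by 0.10 (SE 0.10, limma adjusted p = 0.722) between chow-fed knockout-labelled and wild-type-labelled testes and by -0.20 (SE 0.10, limma adjusted p = 0.913) with ezetimibe. Catsper2 read 15.39 and 15.55 in wild-type-labelled testes, 15.43 and 15.59 in chow-fed knockout-labelled testes, and 15.41 and 15.57 after ezetimibe. Catsper4 read 15.01 and 15.19 in wild-type-labelled testes, 15.00 and 15.03 in chow-fed knockout-labelled testes, and 14.95 and 15.15 after ezetimibe. Groups overlapped for both in every comparison, with differences from -0.020 to 0.038 for Catsper2 and from -0.085 to 0.033 for Catsper4.

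The pore subunits did not share a direction, with -0.16, 0.038, 0.10 and -0.085 for Catsper1 to Catsper4 between chow-fed knockout-labelled and wild-type-labelled testes. Catsperg2 had 2 probes that gave different sizes. Probe 870278 read 14.70 and 15.01 in wild-type-labelled testes, 14.63 and 14.37 in chow-fed knockout-labelled testes, and 14.56 and 14.59 after ezetimibe. Its difference between chow-fed knockout-labelled and wild-type-labelled testes was -0.35 (SE 0.16, limma adjusted p = 0.554), the lowest value among the members, while the arrays of probe 629883 overlapped at -0.11 (SE 0.13, limma adjusted p = 0.763). Catsperb and Catsperd differed by 0.043 and -0.019. Of the 8 CatSper probes, 5 lay below 0 in that comparison, or 2 under median scaling. With ezetimibe against chow-fed knockout-labelled testes 5 lay above 0, or 2 under median scaling. From the median of all probes instead of 0, the counts were 5 and 5 under both scalings.

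The Tssk genes encode serine kinases made almost only in spermatids and sperm, and Tssk6 is needed in mice for chromatin condensation. In knockout-labelled testes 5 of 6 lay below wild-type-labelled testes with a median of -0.12, and 3 did under median scaling. Measured from the median of all probes, 5 of the 6 Tssk genes lay lower under both scalings. Tssk3 stood out among them. It read 17.90 and 18.12 in wild-type-labelled testes, 17.76 and 17.67 in chow-fed knockout-labelled testes, and 17.72 and 17.80 after ezetimibe. Both wild-type-labelled arrays lay above the other 4. The differences of the chow-fed and the ezetimibe-fed knockout-labelled testes from wild-type-labelled testes, which share those controls, were -0.30 (SE 0.12, limma adjusted p = 0.545) and -0.25 (SE 0.12, limma adjusted p = 0.728).

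Tssk1 read 16.82 and 16.67 in wild-type-labelled testes, 16.61 and 16.58 in chow-fed knockout-labelled testes, and 16.80 and 16.74 after ezetimibe. Both knockout-labelled arrays without ezetimibe were the lowest, with -0.15 (SE 0.10, limma adjusted p = 0.613) against wild-type-labelled testes and 0.18 (SE 0.10, limma adjusted p = 0.913) for ezetimibe-fed against chow-fed knockout-labelled testes. Tssk2 read 19.19 and 19.30 in wild-type-labelled testes, 18.98 and 19.20 in chow-fed knockout-labelled testes, and 19.16 and 19.22 after ezetimibe. Its first knockout-labelled array was the lowest and the groups overlapped. Tssk4 read 14.97 and 14.85 in wild-type-labelled testes, 15.06 and 14.66 in chow-fed knockout-labelled testes, and 14.88 and 14.91 after ezetimibe. Its 2 chow-fed knockout-labelled arrays had the widest spread within that group among the members (SD 0.28, n = 2). Tssk5 read 11.70 and 11.85 in wild-type-labelled testes, 11.71 and 11.66 in chow-fed knockout-labelled testes, and 11.86 and 11.80 after ezetimibe. Tssk6 read 19.52 and 19.35 in wild-type-labelled testes, 19.47 and 19.50 in chow-fed knockout-labelled testes, and 19.53 and 19.36 after ezetimibe. Both ezetimibe arrays lay above both chow-fed knockout-labelled arrays for Tssk5, and the groups overlapped in every comparison for Tssk6. Tssk4, Tssk5 and Tssk6 differed by -0.046, -0.095 and 0.050 between chow-fed knockout-labelled and wild-type-labelled testes and by 0.038, 0.15 and -0.039 with ezetimibe.

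The Spag genes include Spag6, Spag16 and Spag17, which encode parts of the central apparatus of the sperm tail, and Spag1, which is needed to assemble dynein arms. Spag1 gave the lowest p of this family. It read 14.36 and 14.43 in wild-type-labelled testes, 14.12 and 14.19 in chow-fed knockout-labelled testes, and 14.43 and 14.50 after ezetimibe. The chow-fed knockout-labelled arrays lay below the other 4. The difference was -0.24 (SE 0.094, limma adjusted p = 0.545) from wild-type-labelled testes and -0.12 with median scaling, and ezetimibe-fed minus chow-fed knockout-labelled testes gave 0.31 (SE 0.094, limma adjusted p = 0.779). The ezetimibe and wild-type-labelled arrays overlapped, with a difference of 0.067.

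For the central apparatus genes, differences were small against their errors. Spag6 read 17.36 and 17.36 in wild-type-labelled testes, 17.24 and 17.33 in chow-fed knockout-labelled testes, and 17.18 and 17.46 after ezetimibe. Spag16 read 14.91 and 15.14 in wild-type-labelled testes, 14.96 and 14.95 in chow-fed knockout-labelled testes, and 14.98 and 15.03 after ezetimibe. Their differences between chow-fed knockout-labelled and wild-type-labelled testes, -0.076 and -0.071, turned positive under median scaling. Spag6 and Spag6l are close copies, and the probe sequences were not used here, so their signals may not be separate. Spag17 had 2 probes of opposite sign in that comparison, -0.15 for probe 452618 and 0.16 for probe 626724, with overlapping arrays for both. Probe 626724 read 12.74 and 12.40 in wild-type-labelled testes, 12.68 and 12.77 in chow-fed knockout-labelled testes, and 12.65 and 12.62 after ezetimibe. The dim wild-type-labelled array was its lowest, and without it the difference was -0.012. Spag4, which encodes a nuclear envelope protein of the SUN family, differed by -0.020. Spag9, which encodes a scaffold of the JNK pathway, differed by -0.024 and Spag7 by -0.19. Of the 9 tested Spag probes, 7 lay below 0 between chow-fed knockout-labelled and wild-type-labelled testes, or 3 under median scaling. With ezetimibe against chow-fed knockout-labelled testes 6 lay above 0, or 3 under median scaling. From the median of all probes instead of 0, the counts were 7 and 6 under both scalings.

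The Spata genes held 2 of the 3 members with an unadjusted p under 0.05 between chow-fed knockout-labelled and wild-type-labelled testes, Spata7 and Spata20. With median scaling neither kept it, at differences of -0.20 and -0.20, and Spaca1 was the 1 member that did. Spata7, which encodes a ciliary protein best known from human retinal disease, read 16.53 and 16.66 in wild-type-labelled testes, 16.27 and 16.31 in chow-fed knockout-labelled testes, and 16.46 and 16.40 after ezetimibe. Spata20, which encodes a thioredoxin-like protein, read 18.17 and 18.33 in wild-type-labelled testes, 17.97 and 17.97 in chow-fed knockout-labelled testes, and 18.17 and 18.11 after ezetimibe. Both genes were highest on the wild-type-labelled arrays, lowest on the chow-fed knockout-labelled arrays and between on the ezetimibe arrays, with no overlap between the 3 groups. Knockout-labelled minus wild-type-labelled testes gave -0.31 (SE 0.099, limma adjusted p = 0.517) for Spata7 and -0.28 (SE 0.10, limma adjusted p = 0.545) for Spata20.

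Spata18, which encodes a mitochondrial quality control protein, followed the same order. It read 16.92 and 16.99 in wild-type-labelled testes, 16.73 and 16.72 in chow-fed knockout-labelled testes, and 16.90 and 16.87 after ezetimibe. The chow-fed knockout-labelled arrays lay -0.23 from wild-type-labelled testes (SE 0.089), with ezetimibe arrays higher by 0.16 than those of chow-fed knockout-labelled testes. Spata1, Spata4 and Spata5 were also lowest on both chow-fed knockout-labelled arrays, with differences from wild-type-labelled testes of -0.29, -0.20 and -0.18. Spata4 read 17.34 and 17.41 in wild-type-labelled testes, 17.25 and 17.11 in chow-fed knockout-labelled testes, and 17.34 and 17.40 after ezetimibe. None of these passed, with limma adjusted p of 0.545 or more.

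Spata16 and Spata6 lay in the other direction. Spata16 encodes a Golgi protein of the forming acrosome, whose loss in humans gives round-headed sperm. It read 14.90 and 14.73 in wild-type-labelled testes, 15.03 and 14.99 in chow-fed knockout-labelled testes, and 15.08 and 15.06 after ezetimibe. The wild-type-labelled arrays were the lowest and the ezetimibe arrays the highest, with 0.26 (SE 0.10, limma adjusted p = 0.707) between those groups and 0.20 (SE 0.10, limma adjusted p = 0.576) between chow-fed knockout-labelled and wild-type-labelled testes. Spata6, which builds the connecting piece of the sperm neck in mice, read 18.51 and 18.72 in wild-type-labelled testes, 18.53 and 18.73 in chow-fed knockout-labelled testes, and 18.85 and 18.76 after ezetimibe. Both ezetimibe arrays were the highest, and the chow-fed knockout-labelled and wild-type-labelled arrays overlapped (difference 0.015). Ezetimibe arrays differed from wild-type-labelled ones by 0.19 (SE 0.13, limma adjusted p = 0.803).

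Spata31 had the largest difference of any member, a lower signal on the ezetimibe arrays. It read 10.82 and 10.75 in wild-type-labelled testes, 10.86 and 11.00 in chow-fed knockout-labelled testes, and 10.41 and 10.07 after ezetimibe. Both ezetimibe arrays lay below the other 4, and they were 0.34 log2 units apart. The probe was dim, with a signal-to-noise of 7.26 and 5.11 on the ezetimibe arrays and 7.54 to 14.95 on the other 4. Ezetimibe-fed minus chow-fed knockout-labelled testes gave -0.68 (SE 0.15, limma adjusted p = 0.592), or 1.6-fold lower, with a 95% interval from -1.06 to -0.30. Ezetimibe-fed minus wild-type-labelled testes gave -0.54 (SE 0.15, limma adjusted p = 0.597). Spata31 and the Spata31d1 genes form a family on chromosome 13 with close copies, and cross-hybridisation between them was not tested. Among protein-coding genes there, Spata31d1d is next to Spata31d1b, while Spata31 lies apart from them beside Spata31d1c. Spata31d1d read 13.86 and 13.73 in wild-type-labelled testes, 13.86 and 13.71 in chow-fed knockout-labelled testes, and 13.57 and 13.56 after ezetimibe. Its ezetimibe arrays also lay below the other 4, with differences of -0.22 (SE 0.11, limma adjusted p = 0.905) and -0.23 (SE 0.11, limma adjusted p = 0.728) in the same comparisons.

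Spata9 read 15.45 and 15.67 in wild-type-labelled testes, 15.60 and 15.71 in chow-fed knockout-labelled testes, and 15.42 and 15.35 after ezetimibe. Both ezetimibe arrays were the lowest, with -0.27 (SE 0.12, limma adjusted p = 0.884) against chow-fed knockout-labelled testes. Spata19, which encodes a protein of the mitochondrial sheath, and Spata24 overlapped with ezetimibe and differed from chow-fed knockout-labelled testes by 0.019 and 0.012. Spata17, Spata2 and Spata32 differed by 0.032, 0.11 and 0.16 there. Spata2l, detected on 5 arrays, read 10.62 and 9.47 in wild-type-labelled testes, 9.70 and 9.95 in chow-fed knockout-labelled testes, and 10.05 and 10.35 after ezetimibe. Its wild-type-labelled arrays spanned those of the other groups, so its differences have an SE of 0.40. Of the 17 tested Spata members, 14 lay above 0 with ezetimibe against chow-fed knockout-labelled testes and 11 under median scaling, and relative to the median of all probes 14 did under both scalings. Against wild-type-labelled testes 12 of the 17 lay below 0 in chow-fed knockout-labelled testes, 9 under median scaling. Below the median of all probes there were 12 with quantile normalisation and 14 with median scaling.

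**Figure D3:**
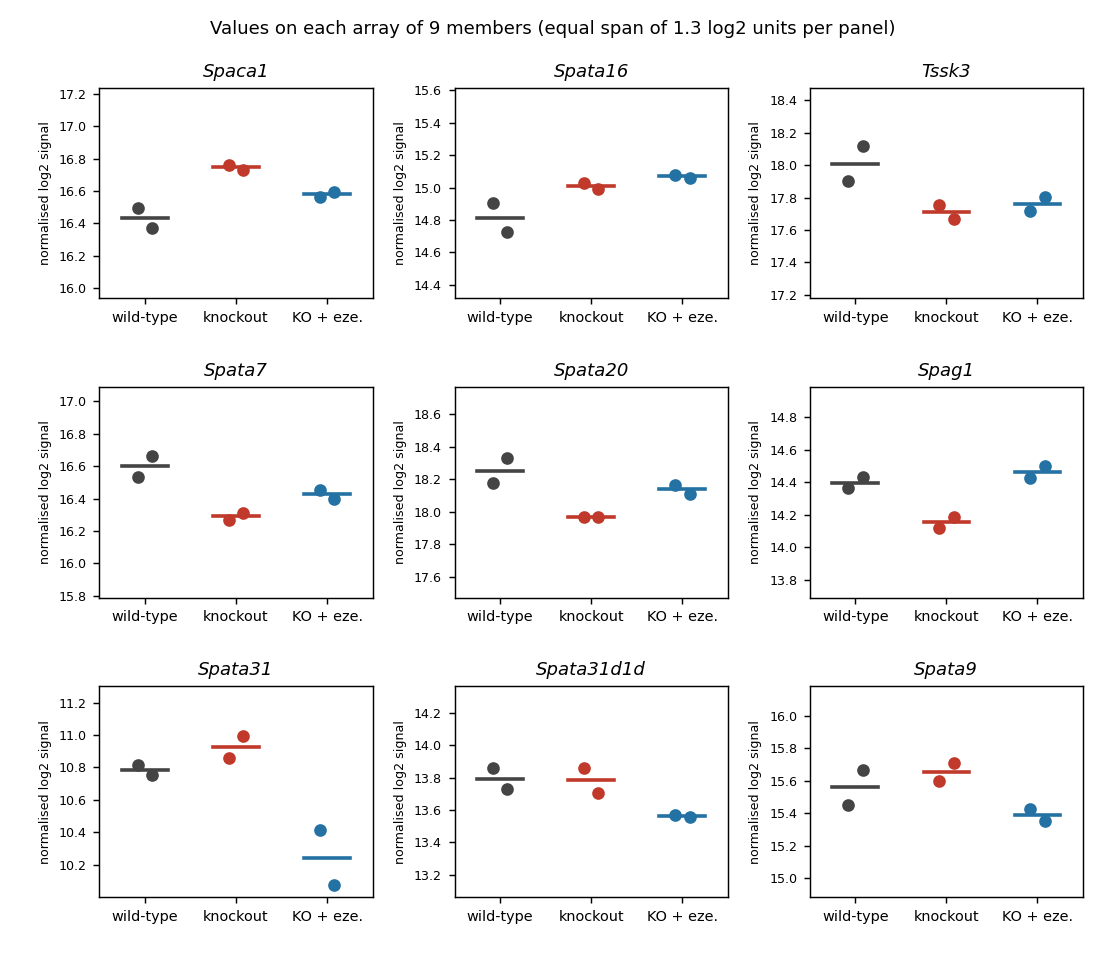
Normalised log2 signal of 9 members on each array (points) with the group mean (line), in panels of equal span, with the arrays named by label. Spaca1 is highest and Spata7, Spata20 and Spag1 are lowest on the knockout-labelled arrays without ezetimibe, and Spata31, Spata31d1d and Spata9 are lowest on the ezetimibe arrays.

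Counting the members for which both arrays of a group lay outside the other 4 arrays describes each group separately. The wild-type-labelled arrays lay below the others for 3 members, Spaca1, Spata16 and Spesp1 (5.88% of members, background 9.61%). They lay above the others for 8, namely Acrbp, Catsper1, 1 probe of Catsperg2, Spaca7, Spata18, Spata20, Spata7 and Tssk3 (15.7%, background 9.38%). The chow-fed knockout-labelled arrays were the lowest for 9, namely Izumo4, Spag1, Spata1, Spata18, Spata20, Spata4, Spata5, Spata7 and Tssk1 (17.6%, background 9.77%), and the highest for Catsper3, Spaca1 and Spata31 (5.88%, background 10.3%). The ezetimibe arrays were the lowest for Spata31, Spata31d1d and Spata9 (5.88%, background 6.24%) and the highest for Spata16, Spata32 and Spata6 (5.88%, background 6.26%). Most shares were near or below the background, and the 2 above it rest on quantile-normalised values.

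Spermatid genes outside the families also gave no call. Of 24 tested acrosome and gamete-interaction genes, 0 passed, with medians of 0.024, -0.0039 and 0.031 for knockout-labelled minus wild-type-labelled, ezetimibe-fed minus chow-fed knockout-labelled and ezetimibe-fed minus wild-type-labelled testes. Gopc, whose product acts in Golgi transport to the acrosome, differed by 0.33 with ezetimibe from chow-fed knockout-labelled testes (limma adjusted p = 0.839) and by 0.35 from wild-type-labelled testes. Ly6k differed by 0.28 and Sppl2c by -0.23 between chow-fed knockout-labelled and wild-type-labelled testes. Of 15 tested genes of spermatid transcription and CREM partners, 0 passed. Between chow-fed knockout-labelled and wild-type-labelled testes 6 lay above 0 and 9 below, and their median of -0.065 turned to 0.050 with median scaling. Less the median of all probes, it was -0.070 and -0.060 in that comparison. Kif17, a motor that carries the CREM coactivator in mouse spermatids, differed by -0.75 there (SE 0.20, limma adjusted p = 0.489) and Taf7l, a testis form of a basal transcription subunit, by 0.32 (adjusted p = 0.545). Creb1, a close relative of Crem, differed by -0.66 with ezetimibe from chow-fed knockout-labelled testes (SE 0.14, limma adjusted p = 0.594).

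Of 13 tested spermatid genes known to depend on CREM, such as the protamine and transition protein genes, 0 passed. Their median between chow-fed knockout-labelled and wild-type-labelled testes was -0.054. It was 0.11 without the dim wild-type-labelled array and -0.10 with median scaling. Less the median of all probes, these values were -0.059, 0.11 and -0.21 in that order. Tnp1, a transition protein gene, differed by 0.32 and Gapdhs, a sperm glycolytic enzyme gene, by -0.23 (limma adjusted p = 0.573 for each). Of 10 tested genes of sperm ion transport and hyperactivation, 0 passed, with 5 above and 5 below 0 in that comparison. Slc9c1, the sperm sodium-proton exchanger gene, differed by 0.62 (SE 0.30, limma adjusted p = 0.571). Of 10 tested spermatocyte markers 4 lay above 0 there and 0 passed, and of 7 tested spermatogonia markers 6 lay above 0 and 0 passed.

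Markers of other testis cells are given for the same arrays. The peritubular and matrix markers had a median difference of 0.36 between chow-fed knockout-labelled and wild-type-labelled testes, with 8 of 10 above 0, and -0.34 with ezetimibe against chow-fed knockout-labelled testes, with 10 of 10 below 0. Their summed signal was 105000 and 97500 in wild-type-labelled testes, 140000 and 112000 in chow-fed knockout-labelled testes, and 82800 and 93900 after ezetimibe. Col3a1, a collagen gene, gave 0.81 and -1.07 in these comparisons, and 0 of the 10 passed. With ezetimibe against chow-fed knockout-labelled testes, the Leydig cell markers had a median of -0.34 with 7 of 8 below 0, the macrophage markers -0.36 with 8 of 9 below 0 and the Sertoli cell markers -0.12 with 8 of 9 below 0. The summed macrophage signal was 78700 to 86600 on the 4 chow arrays and 63100 and 69800 after ezetimibe. The summed Leydig signal was 115000 to 125000 on the chow arrays and 105000 and 108000 after ezetimibe. Between chow-fed knockout-labelled and wild-type-labelled testes the Leydig, macrophage and Sertoli medians were 0.048, -0.019 and 0.12, the macrophage value turning to 0.092 with median scaling. Less the median of all probes, the macrophage value was -0.024 with quantile normalisation and -0.017 with median scaling.

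The 2 tested red cell markers had summed signals of 68500 and 66100 in wild-type-labelled, 327000 and 163000 in chow-fed knockout-labelled and 36800 and 57800 in ezetimibe-fed testes. They did not share the size of the change. Between chow-fed knockout-labelled and wild-type-labelled testes Hba-a1, a globin gene, differed by 1.85 and Alas2 by 0.27. With ezetimibe against chow-fed knockout-labelled testes these were -2.43 and -0.44, and neither gene passed. Of 4 tested endothelium markers 3 lay below 0 with ezetimibe against chow-fed knockout-labelled testes. Of 2 tested epididymis markers both lay above 0 there, with a median of 0.19. Among defining markers, Amh and Gata4 of Sertoli cells, Adgre1 of macrophages, Tie1 of endothelium, Nanos3 of spermatogonia and Lcn5 of epididymis were detected on 0 arrays. With quantile normalisation, the members leaned lower and the matrix and red cell markers higher between chow-fed knockout-labelled and wild-type-labelled testes. With ezetimibe against chow-fed knockout-labelled testes these directions were reversed, and both comparisons use the same chow-fed knockout-labelled arrays. Between ezetimibe-fed knockout-labelled and wild-type-labelled testes the medians of members, matrix and red cell markers were -0.020, -0.051 and -0.375 with quantile normalisation. With median scaling they were 0.031, 0.019 and -0.32. Less the median of all probes, each lay below 0 under both scalings. The part of those cells in the members' differences was not tested.

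**Figure D4:**
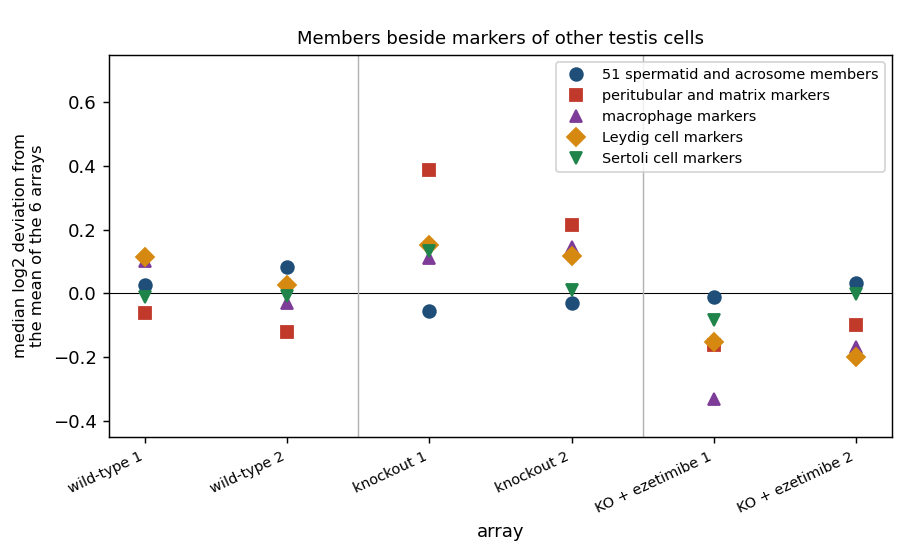
Median log2 deviation from the mean of the 6 arrays, on each array (named by label), for the 51 members and for markers of 4 other testis cell populations. The members stay between -0.055 and 0.084, while the matrix markers reach 0.39 on knockout-labelled replicate 1 and the macrophage markers -0.33 on ezetimibe replicate 1.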

How the data were processed

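Per the labels' protocols, digoxigenin-labelled cRNA made from whole testis was put on a 1-colour array for each of the 6 mice. The deposited raw table holds, per the file headers, the intensity of each probe as a raw signal value and a signal-to-noise score, how noise was estimated not being stated. A second deposited table holds intensity values that equal the raw signal over 1 constant per array, as the authors' values show, and served as an alternative. Raw signals were taken to log2, quantile-normalised between arrays and tested with limma 3.58.1 in R 4.3.3 with 1 mean per group, a signal-to-noise minimum of 3 on both arrays of 1 group, and Benjamini-Hochberg adjustment over all 16015 tested probes. The fit was also run on simulated data with changes of 1 log2 unit or more, larger than any member's difference. That run does not measure how well differences of the members' size are detected. Each array is a separate mouse, per the labels, and the number of arrays limits the precision: an exact permutation test of 2 against 2 arrays cannot go below 0.333, so none was used. The members and gene lists were chosen with earlier results of these data known. Values on every array are given for the 5 members of lowest p in each direction of a comparison and for defining genes of each role, and for other members chosen after their values were seen (Izumo4, Spata2l); up to 3 genes of lowest p are named from each other list. Gene symbols come from the platform annotation, promoters from RefSeq. Alternatives covered scaling, background, filters, prior variance, array weights, probes per gene, the groups in the fit and each array left out.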

Additional observations from a re-analysis of the deposited data

How the results depend on the processing

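No member passed the limma threshold under any alternative run. The median difference of the members, with median scaling and with the authors' values in that order, was 0.0357 and 0.0364 for chow-fed knockout-labelled minus wild-type-labelled testes. It was -0.0055 and -0.0063 for ezetimibe-fed minus chow-fed knockout-labelled testes, and 0.0305 and 0.0301 for ezetimibe-fed knockout-labelled minus wild-type-labelled testes. Both of these scalings divide each array by 1 constant, so they are not separate checks of each other. They also moved the median of all probes. With 1 array left out, the members' median ran from -0.1161 to -0.0521, from 0.0383 to 0.093 and from -0.0852 to 0.0072 in the same order of comparisons. Relative to the median of all probes, a measure chosen after seeing the data like the counts under median scaling, those without wild-type-labelled replicate 2 and the values over the 4003 brightest probes, it ran from -0.1167 to -0.055, from 0.0346 to 0.0912 and from -0.0861 to 0.0014.

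Calls over all tested probes were 2, 0 and 2 in the same order. An intensity trend in the prior variance gave 31, 14 and 26. For chow-fed knockout-labelled minus wild-type-labelled testes, 0 were called with no filter (2205 at an unadjusted p under 0.05), 4 with detection on all 6 arrays and 0 with only those 2 groups (1213 unadjusted). For ezetimibe-fed knockout-labelled minus wild-type-labelled testes, 0 were called with no filter (1896 unadjusted), 1 with array weights and 1 with only those 2 groups. With 1 array left out, limma calls ran from 0 to 1, from 0 to 4 and from 0 to 3, the lone array of a group being assumed to vary like the other groups. The cause of these shifts was not tested.

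For chow-fed knockout-labelled minus wild-type-labelled testes, the log2 difference turned sign with median scaling and with the authors' values (in that order) for Catsper4 0.0154 and 0.0157, Fhl5 0.0637 and 0.0641, Spag16 0.0351 and 0.0355, Spag6 0.0366 and 0.0369, Spam1 0.042 and 0.0422, Tssk4 0.0612 and 0.0616, Tssk5 0.0357 and 0.0364. For ezetimibe-fed minus chow-fed knockout-labelled testes, the log2 difference turned sign with median scaling and with the authors' values (in that order) for Catsper1 -0.0368 and -0.0375, Catsper4 -0.0055 and -0.0063, Spag6 -0.0286 and -0.0294, Tssk3 -0.0027 and -0.0035, Tssk4 -0.0121 and -0.0127. For ezetimibe-fed knockout-labelled minus wild-type-labelled testes, the log2 difference turned sign with median scaling and with the authors' values (in that order) for Catsper4 0.0099 and 0.0094, Spag16 0.0495 and 0.049, Spag6 0.008 and 0.0076, Tssk4 0.0491 and 0.0488. With each array left out in turn, the difference for chow-fed knockout-labelled minus wild-type-labelled testes crossed 0 for Catsper2 -0.039 to 0.1154, Catsper4 -0.1774 to 0.0081, Crem -0.0314 to 0.2257, Fhl5 -0.0527 to 0.0309, Spag16 -0.1841 to 0.0412, Spag17 (626724) -0.0117 to 0.3257, Tssk4 -0.2459 to 0.1534, Tssk6 -0.0331 to 0.1337, Zpbp2 -0.0676 to 0.2374. With each array left out in turn, the difference for ezetimibe-fed minus chow-fed knockout-labelled testes crossed 0 for Catsper1 -0.0533 to 0.08, Catsper2 -0.1035 to 0.0635, Catsper4 -0.0639 to 0.1304, Spag6 -0.1065 to 0.1732, Spam1 -0.022 to 0.3192, Spesp1 -0.0511 to 0.0085, Tssk2 -0.0055 to 0.2113, Tssk4 -0.1613 to 0.2379, Tssk6 -0.123 to 0.0453, Zpbp -0.0329 to 0.1303. With each array left out in turn, the difference for ezetimibe-fed knockout-labelled minus wild-type-labelled testes crossed 0 for Catsper2 -0.0654 to 0.1017, Catsper4 -0.1485 to 0.0457, Crem -0.0884 to 0.1688, Spag16 -0.1326 to 0.0927, Spag6 -0.1829 to 0.0968, Spam1 -0.1065 to 0.2347, Tssk1 -0.0539 to 0.1026, Tssk2 -0.1091 to 0.0038, Tssk4 -0.0688 to 0.0529, Tssk5 -0.0223 to 0.1238, Tssk6 -0.0727 to 0.0956, Zpbp -0.1366 to 0.0266.

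No paired analysis was possible because the animal numbers in the labels are not shared between groups. With 2 arrays per group, small differences in dim probes such as that of Spata2l could not be resolved.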
